A study of Mus musculus with 10 samples.

Results

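*Prom1*, which encodes the pentaspan membrane glycoprotein prominin 1 (CD133), was examined in mouse liver together with 7 genes used as markers of bile duct epithelium or liver progenitor cells, namely *Krt7*, *Krt19*, *Sox9*, *Epcam*, *Spp1*, *Cftr* and *Cd24a*. These 8 of the 16647 genes in the count table were chosen by name, and the question was whether a higher *Prom1* level after treatment with MI-883 was shared by the other 7. The RNA came from whole liver pieces of 5 control and 5 MI-883-treated male mice. MI-883 is a small molecule that activates human CAR and blocks human PXR, the xenobiotic receptors of the liver. All 10 animals carried the humanized PXR-CAR-CYP3A4/3A7 alleles and were 10 to 15 weeks old at the start. They received a high-fat diet (HFD) for 8 weeks and stayed on it during 4 weeks of gavage, 3 times per week, with MI-883 at 5 mg/kg or with its vehicle alone. Each library is from another animal.

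The bile ducts are lined by cholangiocytes, a small share of liver cells that modify bile by secreting chloride and bicarbonate. Cholangiocytes and the progenitor-like cells of a ductular reaction, the spread of small ducts in injured liver, express keratins 7 and 19, SOX9, EpCAM, osteopontin and prominin 1. Several of these genes can also be switched on in hepatocytes, so no single one of them marks the ducts alone. In bulk liver RNA, fewer cells of a type and less RNA per cell cannot be told apart, and this holds for every level given here.

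RefSeq's table for GRCm38.p6 held windows of the 250 bases before annotated transcript starts for 5 of the 8 genes, 7 windows in all. They were searched on both strands for AGGTCA and AGTTCA, the core motifs of nuclear receptor binding sites, and for direct repeats of these motifs spaced by 4 bases. Both windows below lie outside the exons of their gene. The *Prom1* window precedes an inner start and lies within the longer transcripts (chr5:44094769-44095018, minus strand). It is shown because *Prom1* was the gene that changed, and it held neither motif. The *Epcam* window (chr17:87635729-87635978, plus strand) is shown because it alone among the 7 held a motif, AGTTCA, at 2 places marked by capitals.
Prom1: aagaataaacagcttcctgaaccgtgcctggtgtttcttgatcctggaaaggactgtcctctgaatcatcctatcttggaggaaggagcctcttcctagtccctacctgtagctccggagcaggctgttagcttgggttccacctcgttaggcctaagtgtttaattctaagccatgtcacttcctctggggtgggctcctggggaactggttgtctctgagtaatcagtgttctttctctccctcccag
Epcam: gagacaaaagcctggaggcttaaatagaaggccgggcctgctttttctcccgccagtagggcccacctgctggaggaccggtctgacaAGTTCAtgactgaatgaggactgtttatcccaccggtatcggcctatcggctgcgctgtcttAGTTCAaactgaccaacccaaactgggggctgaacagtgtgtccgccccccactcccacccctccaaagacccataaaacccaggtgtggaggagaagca
AGGTCA occurred in 14.0% and AGTTCA in 11.8% of all 32851 windows, and a direct repeat in 0.0244%. The absence of a match says only that these letters are not in this window.

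Between 24014461 and 36221514 reads per control liver (median 31734138) and between 23513665 and 28349963 per MI-883-treated liver (median 24581671) were counted on genes. Levels are given as CPM, the counts scaled to library size by the TMM method, with the S.D. over 5 livers. The 13219 genes whose counts over the 10 livers added up to 60 or more entered the quasi-likelihood test of edgeR, and P was adjusted over all of them by the Benjamini-Hochberg method. *Prom1*, *Krt7*, *Krt19*, *Sox9*, *Epcam*, *Spp1* and *Cd24a* passed this minimum and *Cftr* did not. A gene is said to be called where its adjusted P is under 0.05, which in edgeR was the case for 1.03% of tested genes, 0.764% higher and 0.265% lower after MI-883. *Prom1* was 1 of the 8 genes to be called higher, none was called lower, and none of the other 6 tested genes was called in edgeR or in DESeq2, where 3.5% of tested genes were called and 2.2% were called higher. Without adjustment, 1 of these 6, *Sox9*, had P under 0.05 in edgeR, where this held for 15.6% of tested genes and with a higher level for 8.09%. The 2 groups did not overlap in 1 of the 8 genes, *Prom1*, against 3.98% of tested genes in either direction and 2.05% with all treated livers higher.

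*Prom1* (Entrez gene 19126, chromosome 5, 43993621 to 44102047, minus strand) was higher in every MI-883-treated liver than in any control liver. Its level in control replicates 1 to 5 was 1.45, 0.906, 0.123, 0.463 and 0.307 CPM. In MI-883-treated replicates 1 to 5 it was 8.38, 12.3, 11.3, 13.0 and 10.8 CPM. The lowest treated liver lay well above the highest control liver, and control replicate 3, with 3 counts, stood at the floor of 3 counts below which a level was treated as not measurable. The mean went from 0.650 ± 0.534 to 11.1 ± 1.77 CPM (n = 5 each), a ratio of 17.1. The log2 fold change was 4.0 (standard error 0.367, 95% interval 3.21 to 4.80, adjusted P = 0.00011 from edgeR), an interval of 9.25 to 27.8 on the linear scale. It was the fifth most positive log2 fold change among all tested genes. *Prom1* was taken up with its rise already known, so this value is the starting point of the comparison and not independent evidence for it.

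The spread of *Prom1* over livers also differed in size. The coefficient of variation was 82.1% in control livers and 15.9% in MI-883-treated livers, and the highest liver exceeded the lowest 11.8 times in the control group and 1.55 times in the treated group. The control values rest on few reads, 107 counts over 5 livers against 1430 after MI-883. *Prom1* passed the count minimum on its control livers alone. The gene overlaps Gm42716 and, on the opposite strand, Gm16401, with which 2.71% of its 100-base stretches are shared. The strand setting of the counting is not given in the sources used here, so reads from *Prom1* and Gm16401 cannot be told apart in the overlap.

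**Figure D1:**
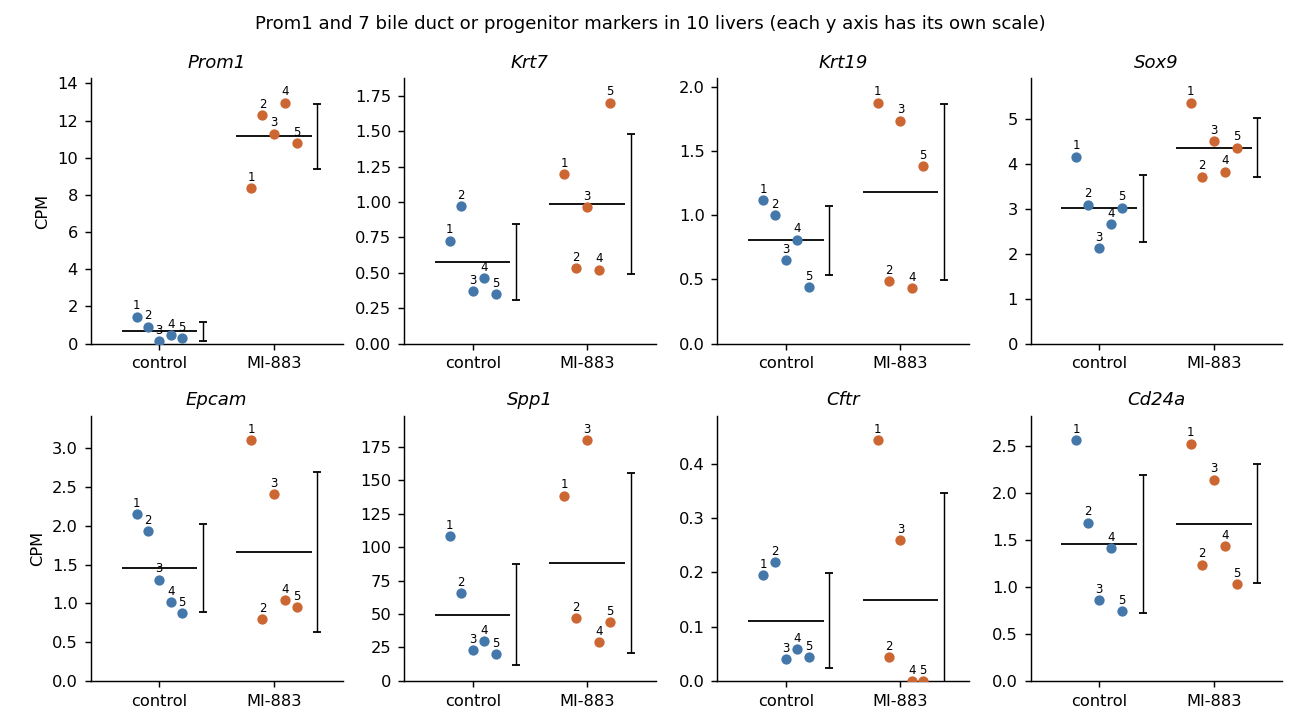
Level of each of the 8 genes in CPM (y axis, from 0, with its own scale in each panel) in 5 control and 5 MI-883-treated livers. Points are livers numbered by replicate, lines are means and bars are S.D.; the groups are apart for *Prom1* (0.123 to 1.45 against 8.38 to 13.0 CPM) and overlap for the other 7 genes.

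*Krt7* and *Krt19* encode the type II and type I keratins of the filaments of duct epithelium. *Krt7* (Entrez gene 110310, chromosome 15, 101412403 to 101427806, plus strand) was at 0.726, 0.969, 0.368, 0.463 and 0.351 CPM in control replicates 1 to 5. In MI-883-treated replicates 1 to 5 it was at 1.20, 0.531, 0.962, 0.522 and 1.70 CPM. Treated replicates 1 and 5 lay above all control livers, whereas the other 3 lay within their range. The mean was 0.575 ± 0.266 in control and 0.983 ± 0.495 CPM in treated livers, and the log2 fold change of 0.76 had a 95% interval from -0.07 to 1.59 (adjusted P = 0.362, edgeR).

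*Krt19* (Entrez gene 16669, chromosome 11, 100140810 to 100145926, minus strand) was at 1.12, 1.0, 0.654, 0.811 and 0.439 CPM in control livers. In treated livers it was at 1.88, 0.487, 1.74, 0.435 and 1.38 CPM. The treated group held both the highest values and the lowest one, in replicate 4. The mean was 0.804 ± 0.270 against 1.18 ± 0.686 CPM, and the log2 fold change of 0.55 had a 95% interval from -0.32 to 1.43 (adjusted P = 0.537, edgeR). A change as large as that of *Prom1* lies outside the intervals of both keratins.

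*Sox9*, a transcription factor of duct development and of hepatocytes that take on duct features, was the marker with the smallest unadjusted P. *Sox9* (Entrez gene 20682, chromosome 11, 112782210 to 112787757, plus strand) was at 4.16, 3.09, 2.13, 2.66 and 3.03 CPM in control livers. In treated livers it was at 5.37, 3.72, 4.52, 3.83 and 4.36 CPM. Control replicate 1 lay above treated replicates 2 and 4, so the groups overlapped, and the other 4 control livers lay below all 5 treated livers. The mean was 3.01 ± 0.748 against 4.36 ± 0.658 CPM. The log2 fold change was 0.53 (standard error 0.176, 95% interval 0.15 to 0.91). Its adjusted P was 0.178 in edgeR and 0.0956 in DESeq2. For its mean log2 CPM, P was 0.0238 by an exact two-sided permutation test. *Sox9* thus did not pass the threshold over all tested genes.

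*Epcam* and *Cd24a* encode surface molecules of epithelial cells, *Epcam* an adhesion protein and *Cd24a* a small glycoprotein attached to the membrane by a lipid anchor. *Epcam* (Entrez gene 17075, chromosome 17, 87635979 to 87651127, plus strand) was at 2.15, 1.94, 1.31, 1.01 and 0.877 CPM in control and at 3.11, 0.797, 2.41, 1.04 and 0.957 CPM in treated livers. *Cd24a* (Entrez gene 12484, chromosome 10, 43579169 to 43584265, plus strand) was at 2.57, 1.69, 0.858, 1.42 and 0.746 CPM in control and at 2.53, 1.24, 2.15, 1.44 and 1.03 CPM in treated livers. In both genes 3 of the 5 treated livers lay below the second highest control liver, and the groups overlapped over most of their range. The log2 fold change of *Epcam* was 0.19 (95% interval -0.65 to 1.03, adjusted P = 0.845, edgeR). That of *Cd24a* was 0.18 (95% interval -0.56 to 0.92, adjusted P = 0.830, edgeR). Without MI-883 replicate 1 both estimates fell below 0, to -0.17 for *Epcam* and -0.018 for *Cd24a*.

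*Spp1* encodes osteopontin, a secreted phosphoprotein made by cholangiocytes and also by activated macrophages and stellate cells. *Spp1* (Entrez gene 20750, chromosome 5, 104435111 to 104441053, plus strand) was at 108, 65.8, 22.9, 29.5 and 20.3 CPM in control livers. In treated livers it was at 139, 47.1, 180, 29.3 and 44.0 CPM. Treated replicates 1 and 3 were the highest of all, and replicate 4 was among the lower control livers. With means of 49.4 ± 37.7 and 87.8 ± 67.3 CPM the spread within each group was as large as the difference, and the log2 fold change of 0.83 had a 95% interval from -0.36 to 2.02 (adjusted P = 0.491, edgeR). The estimate was 0.39 without MI-883 replicate 3 and 1.34 without control replicate 1. The gene shares 5.85% of its 100-base stretches with an overlapping gene, Gm42793.

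*Cftr*, the chloride channel of the apical duct membrane, was close to the limit of detection. *Cftr* (Entrez gene 12638, chromosome 6, 18170687 to 18322770, plus strand) had 7, 7, 1, 2 and 1 counts in control replicates 1 to 5. In MI-883-treated replicates 1 to 5 it had 13, 1, 7, 0 and 0 counts. In 3 livers of each group it was at or below the floor of 3 counts, and a difference was not detectable at this depth. With 39 counts over all 10 livers it was not tested in edgeR, and its mean log2 CPM gave P = 0.960 in an exact two-sided permutation test.

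**Figure D2:**
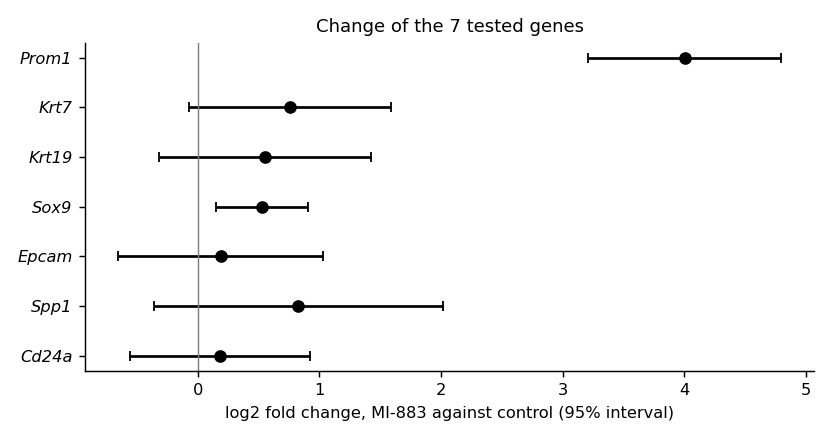
Log2 fold change of MI-883-treated against control livers (x axis) for the 7 tested genes (y axis), with points for the edgeR estimate and bars for its 95% interval without adjustment for the number of genes. *Prom1* is at 4.0, while the other 6 genes are between 0.18 and 0.83 and *Sox9* alone among these has an interval above 0.

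All 6 tested markers other than *Prom1* had a positive log2 fold change, with a median of 0.54, while the median over all tested genes was 0.0045. These 6 are not separate observations, since they were high and low in the same livers. In the control group, replicates 1 and 2 were the top 2 livers for each of the 7 markers. In the treated group, replicate 1 was among the top 2 for 7 of 7 markers and replicate 3 for 6 of 7, the exception being *Krt7*, in which replicate 5 was highest. The summed level of the 7 markers, of which *Spp1* made up the larger share, was 119, 74.7, 28.3, 35.9 and 25.8 CPM in control replicates 1 to 5 and 153, 53.9, 192, 36.6 and 53.4 CPM in treated replicates 1 to 5.

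*Prom1* had its top 2 livers in common with the markers in the control group and not after MI-883. Among control livers it was highest in replicate 1 and second in replicate 2, as 5 of the 7 markers were, while *Krt7* and *Cftr* were highest in replicate 2 and second in replicate 1. It was lowest in control replicate 3, whereas *Krt7*, *Krt19*, *Epcam*, *Spp1* and *Cd24a* were lowest in replicate 5. Among treated livers it was lowest in replicate 1, where the markers were high, and highest in replicate 4, which was among the lowest 2 for 5 of the 7 markers. These ranks carry counting error. Treated *Prom1* rests on 245 to 305 counts per liver and treated *Cftr* on 0 to 13, and the order of close values was not tested. With 5 livers per group, no correlation was computed.

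**Figure D3:**
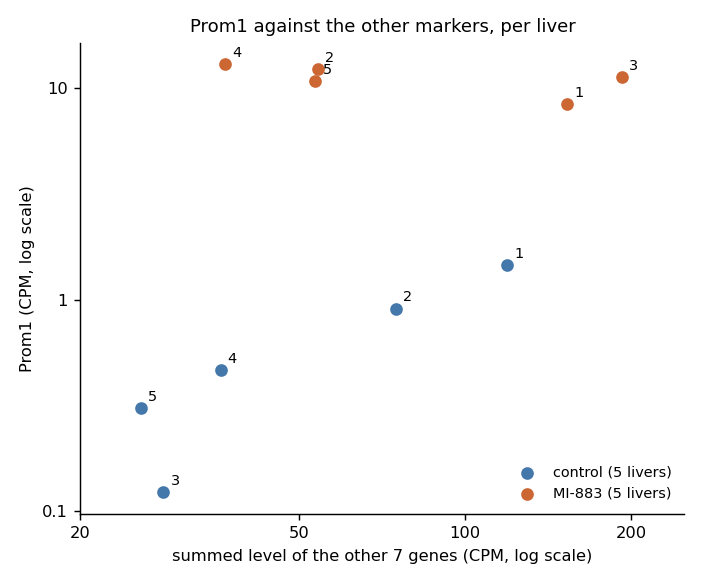
*Prom1* level (y axis, CPM, log scale) against the summed level of the other 7 genes (x axis, CPM, log scale) for each of 5 control and 5 MI-883-treated livers, numbered by replicate. The treated livers lie between 8.38 and 13.0 CPM of *Prom1* over the whole range of the markers, from 36.6 to 192 CPM, and the control livers lie below them, from 0.123 to 1.45 CPM.

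The difference between the change of *Prom1* and that of each marker was taken within the liver, as log2 CPM of *Prom1* minus log2 CPM of the marker. MI-883-treated livers exceeded control livers in this measure by 3.62 for *Krt7*, 3.93 for *Krt19*, 3.75 for *Sox9*, 4.23 for *Epcam*, 3.50 for *Spp1* and 4.04 for *Cd24a*. For *Sox9* the mean of this measure was -2.41 ± 0.86 in control and 1.34 ± 0.45 in treated livers (S.D., n = 5 each), and the S.D. of the other 5 lay between 0.46 and 1.30 in either group. In counts, *Prom1* amounted to between 0.0577 and 0.349 times *Sox9* in control livers and to between 1.56 and 3.39 times *Sox9* in treated livers. Against *Krt19* it went from between 0.188 and 1.30 times to between 4.45 and 29.8 times. For each of 7 such comparisons the groups were apart, with P = 0.00794 by an exact two-sided permutation test, the smallest that 5 livers against 5 allow. The value for *Cftr*, 4.36, depends on the prior count, since *Cftr* was at 0 to 13 counts. Because the rise of *Prom1* was known when the genes were chosen, what these ratios add is their size: the increase of *Prom1* exceeded that of each of the 6 tested markers by at least 3.50 on the log2 scale in the mean over livers.

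Per length, *Prom1* moved past most of the markers. Divided by the kilobases of annotated exons, its level in control livers was 0.0906 ± 0.0744 CPM per kb, next to *Krt7* at 0.0816 ± 0.0378 and below *Krt19* at 0.433 ± 0.146. *Sox9* at 0.729 ± 0.181, *Epcam* at 0.664 ± 0.256 and *Cd24a* at 0.564 ± 0.285 CPM per kb also lay above *Prom1*. Among themselves they did not differ beyond their spread. After MI-883, *Prom1* was at 1.55 ± 0.246 CPM per kb, above *Sox9* at 1.05 ± 0.159, *Epcam* at 0.758 ± 0.471, *Cd24a* at 0.650 ± 0.247, *Krt19* at 0.639 ± 0.370 and *Krt7* at 0.139 ± 0.0702. *Spp1* was the highest of the 8 in both groups, with 30.0 ± 22.9 and 53.3 ± 40.8 CPM per kb, and *Cftr* the lowest, with 0.0143 ± 0.0113 and 0.0193 ± 0.0253. These lengths count every annotated exon, so a gene with long alternative exons reads low on this scale.

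Wider lists of genes of the duct and of progenitor cells showed no call in edgeR, where 0.764% of all tested genes were called higher. At that share a list of this size would seldom hold a call, so 0 calls says little about a list. For these and the lists below, 8.09% of all tested genes were higher at an unadjusted P under 0.05, and 15.6% passed in either direction. Of 23 other genes of bile duct epithelium, 21 were tested, 15 of them with positive and 6 with negative log2 fold changes, and the median was 0.057. The keratins of simple epithelium *Krt8* (457 ± 99.1 against 477 ± 95.8 CPM) and *Krt18* (194 ± 45.4 against 188 ± 37.0 CPM), which hepatocytes also make, and the protease inhibitor *Spint2* (134 ± 10.1 against 138 ± 15.6 CPM) were the most abundant, with log2 fold changes of 0.06, -0.05 and 0.05. At an unadjusted P under 0.05, 2 of these genes were higher and 1 was lower. DESeq2 called 1 of them higher, *Ggt1*, a gamma-glutamyltransferase of duct and fetal liver cells, which is named here after its values were seen. *Ggt1* had 0 to 3 counts per control liver, 7 in all, and 5 to 24 per treated liver, 57 in all. Scaled to library size this is a ratio of 9.37 with a 95% counting interval of 4.26 to 24.3, and the adjusted P was 0.0639 in edgeR and 0.0051 in DESeq2.

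Of 19 genes of bile duct secretion and of the primary cilium, 17 were tested and 0 were called in either tool, with 13 positive and 4 negative log2 fold changes and a median of 0.085. At an unadjusted P under 0.05, 4 of the 17 were higher, against 8.09% of all tested genes. The most abundant were the bicarbonate cotransporter *Slc4a4* (63.3 ± 4.99 against 65.3 ± 9.01 CPM), the water channel *Aqp1* (59.2 ± 11.7 against 62.8 ± 10.9 CPM) and *Atp1b1*, a subunit of the sodium pump (44.9 ± 3.75 against 42.8 ± 4.51 CPM). The 4 higher genes, named here after their values were seen, had adjusted P between 0.199 and 0.257 in edgeR. *Slc4a2* was at 31.9 ± 3.25 against 37.4 ± 2.47 CPM and *Slc10a2* at 16.3 ± 1.52 against 20.1 ± 3.97 CPM. *Itpr3* was at 1.29 ± 0.242 against 1.86 ± 0.231 CPM and *Kcnn4* at 0.383 ± 0.205 against 0.796 ± 0.301 CPM. *Sctr*, the secretin receptor of cholangiocytes, was at 2 to 10 counts in control and 1 to 4 in treated livers and was not tested.

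Of 20 genes of progenitor cells and fetal liver, 17 were listed and 11 were tested. In either tool 0 were called, and the median was 0.20. At an unadjusted P under 0.05, 2 of the 11 were higher, against 8.09% of all tested genes. *Tnfsf12* and its receptor *Tnfrsf12a*, which drive the ductular reaction, were at 10.3 ± 1.77 against 10.1 ± 1.78 and at 6.99 ± 2.38 against 9.48 ± 4.20 CPM. *Cd44*, a hyaluronan receptor, was at 9.54 ± 3.33 against 10.3 ± 3.90 CPM. The 2 higher genes, named here after their values were seen, were *Afp* and *Gpc3*. *Afp* was at 2.49 ± 0.521 against 3.58 ± 0.542 CPM (log2 fold change 0.52, adjusted P = 0.175, edgeR). *Gpc3* was at 0.451 ± 0.288 against 1.13 ± 0.738 CPM (log2 fold change 1.31, adjusted P = 0.259, edgeR). *Prom2*, the paralog of *Prom1*, had 0 to 2 counts per control liver and 0 to 1 per treated liver, at or below the floor in all 10.

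The Notch and Hippo pathways, which set duct fate and duct growth, gave no call in edgeR with all 10 livers. Over all tested genes 0.764% were called higher, and 8.09% were higher at an unadjusted P under 0.05. Leaving out a liver gave 1 Notch gene called higher without MI-883 replicate 4 and 1 Hippo gene called higher without control replicate 4. Of 13 tested Notch genes 11 had positive log2 fold changes, with a median of 0.18 and 3 higher at an unadjusted P under 0.05, and DESeq2 called 1 higher, the ligand *Dll4* (2.18 ± 0.252 against 3.50 ± 0.597 CPM, adjusted P = 0.0581 in edgeR and 0.0059 in DESeq2). The receptor *Notch2* (24.7 ± 1.27 against 25.4 ± 2.10 CPM), the coactivator *Maml1* (18.1 ± 1.54 against 16.9 ± 1.62 CPM) and the target *Hes1* (16.4 ± 4.35 against 16.5 ± 1.37 CPM) were the most abundant. Beside *Dll4*, the Notch genes higher at an unadjusted P under 0.05 were *Hey1* and *Nrarp*, named here after their values were seen. *Hey1* was at 0.811 ± 0.191 against 1.33 ± 0.380 CPM (adjusted P = 0.218, edgeR). *Nrarp* was at 1.75 ± 0.352 against 2.51 ± 0.618 CPM (adjusted P = 0.236, edgeR). Of 14 tested Hippo genes 11 were positive, with a median of 0.14 and 2 higher at an unadjusted P under 0.05. DESeq2 called 1 of them higher, *Birc5*, an inhibitor of apoptosis that dividing cells express (1.56 ± 0.405 against 2.77 ± 0.220 CPM, adjusted P = 0.0581 in edgeR and 0.0045 in DESeq2). The coactivators *Yap1* (76.4 ± 1.90 against 77.6 ± 4.39 CPM) and *Wwtr1* (30.8 ± 2.22 against 35.6 ± 3.23 CPM) and the target *Amotl2* (37.6 ± 3.78 against 41.6 ± 5.93 CPM) did not pass the adjusted threshold in either tool. *Wwtr1* was 1 of the 2 Hippo genes higher without adjustment (log2 fold change 0.20, 95% interval 0.04 to 0.37, unadjusted P = 0.0196, edgeR).

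**Figure D4:**
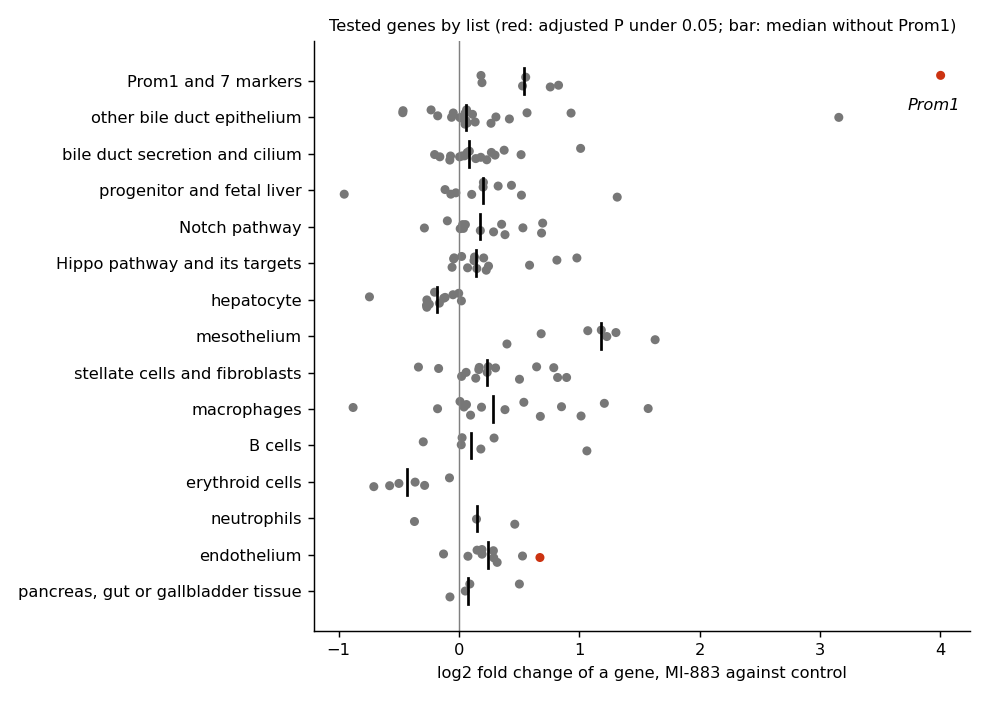
Log2 fold change (x axis) of each tested gene of *Prom1* and its 7 markers and of 14 further lists (y axis), with vertical bars for the median of a list without *Prom1* and red points for an adjusted P under 0.05 in edgeR. *Prom1* at 4.0 and *Tie1* of the endothelium list at 0.67 are the red points, and the gray point at 3.16 is *Ggt1*.

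Lists for the other cells of a liver piece were read beside these results. The 12 hepatocyte genes, led by *Alb*, *Trf* and *Ttr*, summed to between 83626 and 97596 CPM in control and between 74237 and 86107 CPM in treated livers, and none of them was at 0. Of these, 11 had negative log2 fold changes, with a median of -0.18 and no call in edgeR, and DESeq2 called *Asgr2* lower. At an unadjusted P under 0.05, 3 of the 12 were lower. Mesothelium, the cell layer that covers the liver and expresses keratins 7 and 19 too, had the highest list median. Its 7 tested genes of 10 all had positive log2 fold changes, with a median of 1.18, no call in either tool and 3 higher at an unadjusted P under 0.05. The summed level of the list was 2.02 to 6.92 CPM in control and 3.32 to 17.9 CPM in treated livers, highest in treated replicate 5, the liver in which *Krt7* was highest and *Prom1* second lowest of its group. *Gpm6a*, *Upk3b* and *Msln* led this list, and the part of mesothelium in the *Krt7* values was not tested. *Krt14* had 0 counts in all treated livers and 0 to 2 in control livers, below the floor in both groups.

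Stellate cells and fibroblasts (*Dcn*, *Col3a1*, *Reln*) summed to 302 to 492 against 353 to 578 CPM, with 13 of 15 genes positive and 4, *Reln* and the collagen genes *Col1a1*, *Col1a2* and *Col3a1*, higher at an unadjusted P under 0.05. Macrophages (*Cd5l*, *Clec4f*, *Csf1r*) summed to 247 to 419 against 225 to 557 CPM, with 12 of 14 positive and 2, *Cd68* and *Itgax*, higher at an unadjusted P under 0.05. *Col1a1*, *Col1a2*, *Cd68* and *Itgax* are named here after their values were seen. Both hold cells that can make *Spp1*, had no call in either tool and medians of 0.23 and 0.28, and their part in the *Spp1* values was not tested. Endothelium (*Eng*, *Clec4g*, *Stab2*) had 1 gene called higher of 10, the receptor *Tie1*, which rose from 13.2 ± 1.24 to 21.0 ± 2.64 CPM (log2 fold change 0.67, adjusted P = 0.0054, edgeR), and 2 in DESeq2, *Tie1* and *Cdh5*. Of the 10 endothelium genes, 4 were higher at an unadjusted P under 0.05. B cells (*Cd22*, *Cd79b*, *Cd79a*), erythroid cells (*Alas2*, *Hba-a2*, *Hbb-bs*) and neutrophils (*Csf3r*, *S100a9*, *S100a8*) had 0 calls in either tool, with medians of 0.10, -0.43 and 0.15. All 6 tested erythroid genes had negative log2 fold changes, 2 were lower at an unadjusted P under 0.05, and 1 was called lower in edgeR with the replicate block. Of the B cell genes 1 was higher at an unadjusted P under 0.05, and of the neutrophil genes 0 were.

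Pancreas, gut and gallbladder, tissues that lie close to the liver and also hold epithelium with *Prom1* or duct keratins, were read in the same way. Of 17 such genes 12 were listed and 4 were tested, with a median of 0.070, 0 calls in either tool and 0 genes at an unadjusted P under 0.05. Their sum of 17.7 to 29.5 CPM in control and 19.7 to 34.3 CPM in treated livers came for the most part from *Cela1* (18.4 against 19 CPM), followed by *Tff1* and *Tff3*. *Cpa1* of the exocrine pancreas was at 0 in all control livers and had 0 to 1 counts in treated livers. *Cdx2* of intestine and *Muc5b* of mucous epithelium were at 0 in all treated livers. In control livers they had 0 to 1 and 0 to 2 counts, so these genes were below the floor in both groups.

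The genes whose pattern over the 10 livers was most like that of *Prom1* were also looked up. Likeness was measured as the root mean square difference of log2 CPM, centred on the control mean, among tested genes with a mean of at least 1 CPM. This measure follows the size of the rise, so markers with small changes could not come near *Prom1*. The minimum also left out *Krt7*, *Krt19* and *Ggt1*. The list thus cannot decide whether *Prom1* goes with duct genes. The 5 nearest were *Gstm3*, a glutathione S-transferase (0.656), the cytochromes P450 *Cyp2b10* (0.821) and *Cyp2c55* (1.08), the aldo-keto reductase *Akr1b7* (1.09) and the efflux transporter *Abcc4* (1.45). *Akr1b7* was at 1.66 ± 0.603 CPM in control and 13.9 ± 4.75 CPM in treated livers. *Abcc4* was at 3.43 ± 0.703 and 18.9 ± 4.06 CPM. *Cyp2b10*, the reference target of CAR in mouse liver, was at 24.4 to 44.3 CPM in control and 634 to 1375 CPM in treated livers. Since the 5 were picked for this pattern, their values are a description. The mouse receptor genes as listed in the table, *Nr1i2* (PXR, 12.5 ± 2.46 against 13.1 ± 1.15 CPM) and *Nr1i3* (CAR, 7.48 ± 1.64 against 6.67 ± 1.38 CPM), had log2 fold changes of 0.07 and -0.16 (adjusted P = 0.812 and 0.696, edgeR). Because the animals carry human PXR and CAR and the reads were aligned to mouse mm10, these counts do not measure the human receptors.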

How the data were processed

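Liver RNA of 5 control and 5 MI-883-treated mice was sequenced in pairs of reads after a directional library preparation. Per the labels and the study's methods, the authors trimmed reads with fastp 0.23.0, aligned them to mm10 with STAR and deposited raw counts per Entrez gene from featureCounts, without normalization. The annotation and the strand setting are not given in the sources used here. Of 16647 listed genes, 16644 were matched to RefSeq names and positions (GRCm38.p6). Library totals lay between 23513665 and 36221514 counts, so that the floor of 3 counts corresponds to 0.0838 to 0.133 CPM. Intervals from counts and floors cover counting error only.

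The 8 genes and the 14 lists were chosen with earlier results of these data known. Genes whose counts added up to 60 or more over all livers were tested (13219, with 3428 below), although the methods can be read as 60 counts in each sample. Control and treated livers were set against each other in edgeR 4.0.16 (R 4.3.3) by its quasi-likelihood test after TMM scaling, with the condition as the model's one term and a threshold of 0.05 on the Benjamini-Hochberg adjusted P. Single values were compared by exact two-sided permutation tests of mean log2 CPM with a prior count of 2. The fit was tested on simulated data. Named are the 8 genes, from each list the genes called and the 3 with the highest CPM, the 5 genes most like *Prom1*, *Cyp2b10*, *Nr1i2* and *Nr1i3*, with others marked where chosen after their values were seen or given as a call of DESeq2, a marker at 0 or below the minimum.

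Alternatives were DESeq2 1.42.0 (the tool of the study's methods, Wald test without independent filtering), DESeq2 size factors or total counts for scaling, 60 counts in every sample, filterByExpr, all genes without a filter, a block for replicate numbers, another prior count, and leaving out each liver.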

Additional observations from a re-analysis of the deposited data

Results flagged for a closer look

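Of 46 groups of 5 livers examined for a liver far from the others (each of the 8 genes, the summed level of the 7 markers and that of each of the 14 lists, in both conditions), 1 stood out, where about 1 in 20 would by chance. The summed level of the endothelium list was 171 CPM in control replicate 1, while the nearest of the other control livers was at 214 CPM. This is the control liver with the highest *Prom1*, *Krt19*, *Sox9*, *Epcam*, *Spp1* and *Cd24a*. None of the 8 genes had such a liver in either group.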

How the results depend on the processing

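*Prom1* had an adjusted P under 0.05 in all 16 alternatives that tested it, with log2 fold changes from 3.77 (without control replicate 3) to 4.54 (without control replicate 1) and an adjusted P of at most 0.0013. With 60 counts in every sample, 0 of the 8 genes were called, because *Spp1* alone among them was tested there (9959 genes). In no alternative did another of the 8 genes pass the threshold. Their lowest adjusted P was 0.0626 (*Sox9*, without control replicate 1). Without MI-883 replicate 1 the log2 fold changes of *Epcam* and *Cd24a* turned to -0.17 and -0.018 (adjusted P = 0.865 and 0.987, edgeR), and without control replicate 1 they were 0.38 and 0.49. Of the lists of duct epithelium, secretion and progenitor genes, 1 gene was called higher by DESeq2 (*Ggt1*) and 0 under the other settings. In the other lists, edgeR called 1 Notch gene higher without MI-883 replicate 4, 1 Hippo gene higher without control replicate 4 and 1 erythroid gene lower with the replicate block. Leaving out a liver moved the log2 fold change of *Spp1* between 0.39 and 1.34, of *Krt7* between 0.47 and 1.03, of *Krt19* between 0.33 and 0.76 and of *Sox9* between 0.43 and 0.68. All called genes numbered 136 in edgeR, 463 in DESeq2, 89 with the replicate block and between 62 (without MI-883 replicate 5) and 208 (without control replicate 1) on leaving out a liver. Replicate numbers did not pair the livers: the deviations of same-numbered livers correlated between -0.12 and 0.36, and 0 of 5 livers correlated best with its own number. With the replicate block *Prom1* had a log2 fold change of 4.11 (adjusted P = 0.0013, edgeR), and 0 of the 7 ratios had P under 0.05, because sign flips over 5 pairs cannot give less than 0.0625 (exact permutation test). Of the 5 genes most like *Prom1*, 3 were shared when the minimum mean was 0.1 CPM. With scaling by total counts the median log2 fold change of all tested genes was 0.049, against 0.0045 with TMM. Depth limits *Cftr*, *Ggt1* and the control level of *Prom1*.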

Other observations

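Among the 8 keratin genes tested, 2 were called higher and 0 lower in edgeR and likewise in DESeq2, and these were not keratins of the list of duct genes. Of all tested genes, 0.764% were called higher in edgeR and 2.2% in DESeq2. At an unadjusted P under 0.05 in edgeR, 4 of the 8 keratin genes passed in either direction, against 15.6% of tested genes. *Krt4*, a keratin of stratified mucosal epithelium, had 5, 3, 2, 2 and 0 counts in control replicates 1 to 5 and 19, 18, 35, 28 and 40 counts in MI-883-treated replicates 1 to 5. All treated livers lay above all control livers. Its totals of 12 and 140 counts give a ratio of 13.4 with a 95% counting interval of 7.44 to 26.6. In edgeR its log2 fold change was 3.69 with a standard error of 0.438 and an adjusted P of 0.00087. *Krt79* went from 0.281 to 1.14 CPM (log2 fold change 1.95, standard error 0.352, adjusted P = 0.0198 in edgeR). Both were looked up after the results for *Krt7* and *Krt19* were known.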
